A study of Mus musculus with 8 samples.

Results

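Voltage-gated and related ion channels are followed here through the developing brain of T9H/+ mice, which carry 1 copy of a translocation that exchanges parts of chromosomes 7 and 15. The members are the probe sets of the 430B array that the platform annotation gives exactly 1 gene symbol from the potassium (Kcn), sodium (Scn), calcium (Cacn) and HCN channel families or from the TRPC, TRPM and TRPV families. Kcnj13, Kcnq1ot1 and Trpm1 were left out. That gave 124 probe sets of 74 genes, of 14661 probe sets and 9607 genes with 1 symbol, and no HCN gene was among them. Kcnmb4os1 and Kcnmb4os2, which are antisense transcripts, and Trpc4ap, a partner of a TRP channel, entered through their symbols and are not channel genes.

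The 8 samples were neonatal cortex, which the labels also call forebrain, neonatal cerebellum, and whole embryonic brain at 15.5 and 13.5 dpc (days post coitum). Each context had 1 array for each of 2 complementary duplications. On maternal-7 arrays proximal chromosome 7 was a maternal duplication and proximal chromosome 15 a paternal one (matdup 7, patdup 15), and on paternal-7 arrays the parents were exchanged. All animals were T9H/+ and every label names the duplications, so no array came from mice without the translocation or without a duplication. The labels give no strain, no sex and no exact neonatal age, and the series states that there were no biological replicates. Every p-value below sets a contrast against the residual spread of these 8 arrays around an additive model of context and duplication. Whether RNA was pooled from several animals is not stated. Nor do the labels tell if the 2 neonatal regions had shared donors. With shared donors, the 4 neonatal arrays would not be 4 independent units, although the p-values treat all arrays as independent. Both neonatal contexts are dissected regions and both embryonic ones whole brain, so age and dissection cannot be told apart.

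Voltage-gated channels open when the membrane potential changes. In neurons, sodium channels carry the upstroke of the action potential, potassium channels end it and set the firing rate, and calcium channels couple it to transmitter release and gene expression. The 2-pore and inward rectifier potassium channels hold the resting potential, and TRP channels are cation channels that respond to ligands, temperature or lipids. Each of these families has pore-forming subunits, and several have auxiliary subunits that set trafficking and gating.

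Of the 124 probe sets, 86 were tested, with 58 genes, because their signal lay above the array's median (229.8 to 285.7 signal units) on at least 2 of 8 arrays. Signals under that median were taken as background. Among all 22511 probe sets, 58.7% were tested. The other 38 probe sets held the only measurement of 16 genes, Kcna4, Kcnd2, Kcne1, Kcnh5, Kcnj9, Kcnj15, Kcnk13, Kcnk15, Kcnma1, Kcnmb4os1, Kcnt2, Scn4b, Scn7a, Trpc2, Trpc4ap and Trpm5, and the largest mean over 8 arrays in these genes was 203 signal units. The number of member probe sets above the array median was 55 and 59 of 124 at 13.5 dpc, 68 on both arrays at 15.5 dpc, and 69 to 82 on the neonatal arrays. By definition of the median, as many of all probe sets lie above it as below it on every array.

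Differences are given on the scale log2(signal + 58.5), which understates changes of dim probe sets, with the moderated standard error of limma. A probe set passed where its p-value, adjusted by Benjamini-Hochberg over all 13221 tested probe sets, was under 0.05. Signals are listed for the maternal-7 array first and the paternal-7 array second. Signals of different probe sets are not compared, since probes differ in how they bind.

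The 13.5 dpc pair stood apart among the channels. On it, 15 of the 86 tested members (17.4%) differed at least 2-fold between both arrays, against 6.66% of all tested probe sets, and 10 of the 15 were lower on the paternal-7 array. The corresponding counts were 3 members in cortex, 1 in cerebellum and 4 at 15.5 dpc (3.49%, 1.16% and 4.65%, against 2.70%, 2.87% and 7.92% of all). No test can be made within a pair of single arrays. Some probe sets that passed between neonatal and embryonic arrays had signals at least 2-fold apart in this pair. For these the difference is also given without the 13.5 dpc paternal-7 array.

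Channel transcripts were more often higher in the neonatal regions than in embryonic brain. Of the 86 tested members, 35 probe sets of 28 genes (40.7%) were higher, against 14.3% of all tested probe sets, and 5 (5.81%) were lower, against 16.4%. The median difference was 0.37 over members and -0.16 over all tested probe sets, and 58 of 86 members but 38.1% of all probe sets lay above 0. Sodium and calcium channel pores and the potassium channels Kcnq3, Kcnc1, Kcna6, Kcna2, Kcnq5 and Kcnd3 were among those higher, and probe sets of Kcnq5, Trpm3, Cacna2d1, Kcnk6 and Trpm6 were lower. Some higher probe sets, of Scn1a, Scn8a, Kcnq3, Kcna2, Kcnq5, Kcnj3, Kcnj16 and Kcnip2, entered the test through neonatal signals alone. The lower ones of Kcnq5 and Cacna2d1 entered through embryonic signals alone. Such probe sets could only be dim on the other side. With each array left out in turn, 27 to 37 members were higher, and 2 to 4 were lower. Of the 40 that passed, 28 passed in each of these 8 fits, and the others are named below with the arrays they need. With quantile normalization the counts were 37 higher and 2 lower, and with median centring 40 and 2. The split over all tested probe sets moved with the scaling, from 1887 higher and 2168 lower to 1935 and 1604 with quantile normalization and 2398 and 1058 with median centring.

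**Figure D1:**
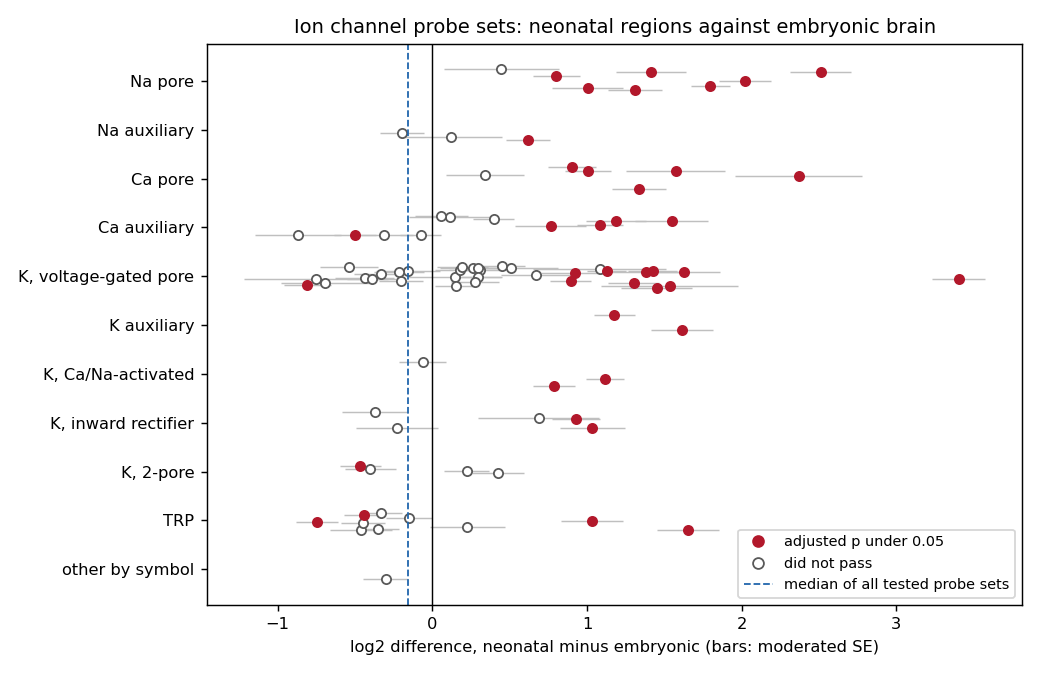
Difference between neonatal and embryonic arrays (log2, x axis) for each of the 86 tested probe sets, by channel family (y axis); bars are moderated standard errors and filled points passed the test. The sodium pore probe sets all lie right of 0, with 7 of 8 filled, and the dashed line marks the median of all tested probe sets at -0.16.

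Markers of 2 cell types moved with this contrast. Each marker gene is represented by its probe set with the highest mean log2 signal, and its other probe sets were not counted. The 4 tested neuron markers (Syt1, Map2, Rbfox3 and Nefl, of 5 with a probe set) were all higher in the neonatal regions, and the summed signal of the list ran from 52600 to 62220 on neonatal arrays and from 15360 to 39610 on embryonic ones. The 3 tested astrocyte markers (Slc1a2, Slc1a3 and Aqp4, of 4 with a probe set) were also higher, with sums of 10890 to 12640 and 4181 to 7245. Of the 2 progenitor markers tested, Rfx4 was higher (0.81 ± 0.16, limma adjusted p = 0.0117) and Top2a lower (-0.71 ± 0.21, adjusted p = 0.0409). The 3 tested markers of choroid plexus, 2 of endothelium and pericytes, 2 of muscle and mesenchyme and 1 of oligodendrocytes did not pass, and the microglia marker was too dim to test. Their part in the channel result was not tested. In such bulk samples, fewer cells of a type and less RNA per cell cannot be told apart.

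The 3'/5' signal ratio of the Gapdh control was 0.74 to 0.785 on neonatal and 0.779 to 0.838 on embryonic arrays, and that of beta-actin was 1.05 to 1.12 and 1.04 to 1.10. Markers of the region matched the dissection in part. Bcl11b and Neurod2, of 5 cortex markers tested, were higher in cortex than in cerebellum, and Tfap2b, of 4 cerebellar markers tested, was higher in cerebellum.

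Pore-forming sodium channels were mostly higher. Of 8 tested probe sets, 7 were higher in the neonatal regions and 1 did not pass, and those 7 covered all 5 tested genes, Scn1a, Scn2a, Scn3a, Scn8a and Scn9a. Among them, Scn1a and Scn8a 1439889_at had no embryonic signal above the array median and so entered the test through neonatal signals alone. The median difference of the family was 1.36.

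Scn2a encodes Nav1.2, a sodium channel of axons in the young brain. Its probe set 1435933_at read 4073 and 5877 in cortex, 4532 and 5795 in cerebellum, 1526 and 1327 at 15.5 dpc, and 574 and 394 at 13.5 dpc. The 4 neonatal arrays lay above both 15.5 dpc arrays, and these above both 13.5 dpc arrays. The difference was 2.51 ± 0.20 (limma adjusted p = 0.000796, 4 arrays a side). The second probe set, 1445259_at, gave 1.31 ± 0.17 (limma adjusted p = 0.00301) and 1.49 without the 13.5 dpc paternal-7 array (adjusted p = 0.00537).

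Scn3a encodes Nav1.3, the sodium channel known for its expression in embryonic and newborn brain. Its signals were 3152 and 2523 in cortex, 4062 and 2927 in cerebellum, 1444 and 1036 at 15.5 dpc, and 725 and 487 at 13.5 dpc. The order was the same as for Scn2a, with no overlap between ages, and neonatal arrays were higher by 1.80 ± 0.13 (limma adjusted p = 0.000601).

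Scn8a encodes Nav1.6, the sodium channel of mature nodes and axon initial segments. Probe set 1439889_at read 430 and 351 in cortex, 337 and 448 in cerebellum, 33.9 and 74.0 at 15.5 dpc, and 37.1 and 66.6 at 13.5 dpc. All embryonic signals lay below the array median, so the neonatal regions were at least 1.44-fold higher (log2 difference 2.02 ± 0.17, limma adjusted p = 0.000877). Its probe set 1457412_at also passed, at 1.41 ± 0.23 (adjusted p = 0.00572), with neonatal signals from 555 to 1175 and embryonic ones from 175 to 331.

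Scn1a and Scn9a passed in 1 probe set each, with overlapping sides. Scn1a, whose product Nav1.1 is known from inhibitory interneurons, read 123 and 232 in cortex, 268 and 215 in cerebellum, 29.7 and 27.9 at 15.5 dpc, and 80.4 and 216 at 13.5 dpc. All embryonic and 2 neonatal signals were under the array median, so the log2 difference of 1.01 ± 0.23 (limma adjusted p = 0.0189) is given without a fold. The call was lost without the paternal-7 array of cortex (adjusted p = 0.0879) or of 15.5 dpc (0.0646) and without the maternal-7 array of cerebellum (0.0669). Without the 13.5 dpc paternal-7 array the difference was 1.22 (adjusted p = 0.0179). Scn9a 1442810_x_at differed by 0.80 ± 0.15 (adjusted p = 0.0105; 0.0581 without the cortex paternal-7 array; difference 0.71 without that of 13.5 dpc), and Scn9a 1442809_at did not pass (0.45 ± 0.37, adjusted p = 0.378). The auxiliary subunit Scn2b, which joins the pore through its extracellular domain, passed in 1 of 3 tested probe sets. That probe set, 1436134_at, read 818 and 906 in cortex, 994 and 1161 in cerebellum, 539 and 569 at 15.5 dpc and 734 and 602 at 13.5 dpc, a difference of 0.62 ± 0.14 (limma adjusted p = 0.0188) with every neonatal array above every embryonic one. The call was lost without either cortex array, the cerebellum paternal-7 or the 13.5 dpc paternal-7 array, at adjusted p-values from 0.0612 to 0.0897.

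**Figure D2:**
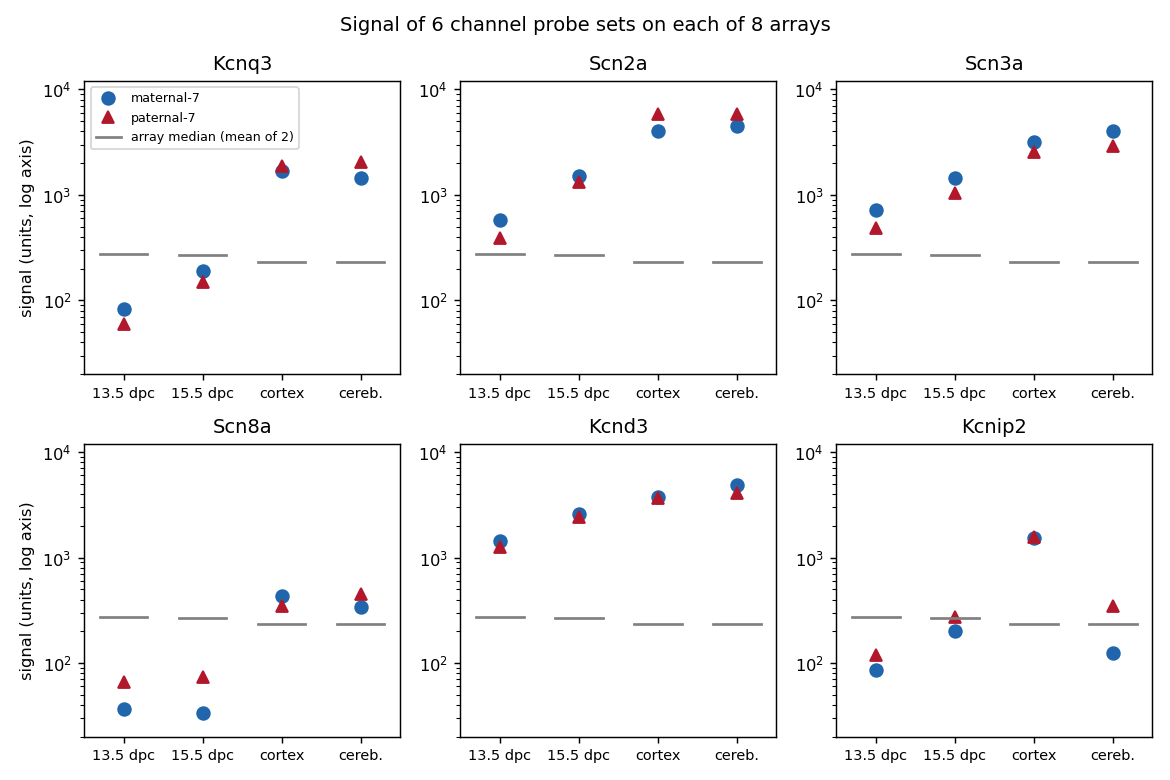
Signal (units, log axis) of 6 channel probe sets by context (x axis), with circles for the maternal-7 and triangles for the paternal-7 array; grey lines are the mean of both array medians of a context. Kcnq3 and Scn8a lie below the grey lines in embryonic brain and above them in the neonatal regions, and Kcnip2 reads 1531 and 1582 in cortex against 125 and 350 in cerebellum.

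Calcium channel pores were also mostly higher in the neonatal regions, in 5 of 6 tested probe sets, which covered 3 of the 4 tested genes. Cacna1b, the N-type pore of presynaptic terminals, passed in all 3 of its probe sets. Probe set 1439612_at read 2602 and 2900 in cortex, 3191 and 2931 in cerebellum, 1650 and 2107 at 15.5 dpc, and 1377 and 1118 at 13.5 dpc, with no overlap between ages and a difference of 0.90 ± 0.15 (limma adjusted p = 0.00685). Probe set 1436602_x_at read 1361 and 2110, 1321 and 1772, 447 and 417, and 364 and 49.1 in the same order of contexts. Its lowest signal, on the 13.5 dpc paternal-7 array, stood far below the other 3 embryonic ones. The difference was 2.37 ± 0.41 (adjusted p = 0.00729) and 1.80 without that array (adjusted p = 0.00559). Without the other 13.5 dpc array it was 2.94 (adjusted p = 0.00249).

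The third Cacna1b probe set, 1460608_at, differed by 1.57 ± 0.32 (limma adjusted p = 0.0127), a call that was lost without the paternal-7 array of cortex (1.33, adjusted p = 0.0594) or of cerebellum (1.35, adjusted p = 0.0634). Without the 13.5 dpc paternal-7 array it was 1.19 (adjusted p = 0.0233). Cacna1e, the R-type pore, differed by 1.34 ± 0.17 (adjusted p = 0.00282) and read 1077 to 1963 in the neonatal regions and 301 to 769 in the embryo. Cacna1c, the L-type pore, differed by 1.01 ± 0.15 (adjusted p = 0.00429), with 375 to 696 and 200 to 285. Both sides were apart for both genes. Cacna1a, the P/Q-type pore, did not pass (0.34 ± 0.25, adjusted p = 0.331).

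Among the auxiliary subunits of calcium channels, 4 of 11 tested probe sets were higher, 1 was lower and 6 did not pass. The beta subunits, which bind the pore inside the cell and aid its trafficking, were higher in all 3 tested genes. Cacnb1 read 1669 and 2212 in cortex, 1887 and 2408 in cerebellum, 1003 and 1140 at 15.5 dpc, and 554 and 274 at 13.5 dpc, a difference of 1.55 ± 0.23 (limma adjusted p = 0.00470; 1.25 without the 13.5 dpc paternal-7 array) with no overlap between ages. Cacnb2 differed by 1.19 ± 0.20 (adjusted p = 0.00621) and Cacnb4 by 0.76 ± 0.23 (adjusted p = 0.0442). The Cacnb4 call held when the maternal-7 array of cortex or of 15.5 dpc was left out. When any of the other 6 was left out, its adjusted p was 0.0879 to 0.166 (difference 0.50 without the 15.5 dpc paternal-7 array). No tested gamma subunit, Cacng2, Cacng4, Cacng7 or Cacng8, passed; these proteins are best known as partners of AMPA receptors. Cacng4 read 8537 and 9891 in cortex, 8869 and 11250 in cerebellum, 8003 and 10490 at 15.5 dpc and 5651 and 5884 at 13.5 dpc, where the neonatal range overlapped that of 15.5 dpc (0.40 ± 0.13, adjusted p = 0.0605).

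The start-site sequences of 3 genes are shown because Scn2a and Cacna1b were higher together in the neonatal regions and Kcnip2 differed between the regions (given below). They cover 250 bases before to 50 after the start, 300 in all, from RefSeq on GRCm38.p6, 5′ to 3′ on the gene's strand. Scn2a has 2 entries, at chr2:65620519-65620818 and chr2:65668436-65668735 (plus strand). Cacna1b lies at chr2:24763103-24763402 and Kcnip2 at chr19:45816014-45816313 (both minus strand). Capitals mark matches, on either strand, to the letters of the GC box (GGGCGG), the CCAAT box (CCAAT), the TATA box (TATAAA) and the cyclic AMP response element (TGACGTCA).
Scn2a, entry 1: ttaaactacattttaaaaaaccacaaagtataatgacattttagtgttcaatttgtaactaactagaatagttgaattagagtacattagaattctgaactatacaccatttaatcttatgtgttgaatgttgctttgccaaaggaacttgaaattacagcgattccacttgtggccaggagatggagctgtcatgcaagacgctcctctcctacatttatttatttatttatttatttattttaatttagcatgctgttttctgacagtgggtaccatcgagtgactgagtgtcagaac
Scn2a, entry 2: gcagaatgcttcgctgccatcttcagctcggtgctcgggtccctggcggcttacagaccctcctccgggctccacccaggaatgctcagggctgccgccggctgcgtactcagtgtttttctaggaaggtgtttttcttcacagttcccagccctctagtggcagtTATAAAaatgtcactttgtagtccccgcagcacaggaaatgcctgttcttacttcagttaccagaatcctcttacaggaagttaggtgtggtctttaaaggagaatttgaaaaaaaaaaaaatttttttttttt
Cacna1b: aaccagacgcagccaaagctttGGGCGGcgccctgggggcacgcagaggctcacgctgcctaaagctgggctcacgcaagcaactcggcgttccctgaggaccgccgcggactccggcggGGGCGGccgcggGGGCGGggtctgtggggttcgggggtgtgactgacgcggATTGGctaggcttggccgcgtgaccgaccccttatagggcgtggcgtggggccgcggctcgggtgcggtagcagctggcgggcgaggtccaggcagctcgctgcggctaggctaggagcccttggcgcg
Kcnip2: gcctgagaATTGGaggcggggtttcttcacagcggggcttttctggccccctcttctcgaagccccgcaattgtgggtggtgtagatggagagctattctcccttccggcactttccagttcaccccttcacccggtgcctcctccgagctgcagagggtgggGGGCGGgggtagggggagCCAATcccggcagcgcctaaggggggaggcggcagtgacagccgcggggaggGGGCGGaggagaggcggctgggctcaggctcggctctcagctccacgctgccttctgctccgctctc
The first Scn2a window held none of these letters and the second held 1 TATA box, while Cacna1b held 3 GC boxes and 1 CCAAT box, and Kcnip2 2 of each. The GC content was 33.0% and 47.7% in the Scn2a windows, 72.3% in that of Cacna1b and 67.0% in that of Kcnip2.

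RefSeq start windows were matched for 55 of the 74 genes, 74 windows in all. Each motif was searched on its own on both strands, so that matches of different motifs may overlap, and a match is a description of the letters. The GC box was in 40.5% of the member windows and 35.7% of all 32851 windows, the CCAAT box in 28.4% and 37.4%, the TATA box in 8.11% and 13.6%, the E-box (CANNTG) in 71.6% and 72.3%, and the cyclic AMP response element in 0 and 1.79%. Median GC content was 58.2% in the member windows and 52.7% in all. Windows of genes higher in the neonatal regions held a GC box in 12 of 41 and those of the other tested genes in 11 of 19 (29.3% and 57.9%). Several windows can belong to 1 gene, and these windows came from 24 and 17 genes. In the same order, the CCAAT box was in 31.7% and 26.3% and the TATA box in 4.88% and 10.5%. The E-box was in 73.2% and 68.4%, and the cyclic AMP response element in 0 and 0. These differences were not tested.

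Of the voltage-gated potassium channel pores, 10 of 33 tested probe sets, of 9 genes, were higher in the neonatal regions, 1 was lower and 22 did not pass. The median of the family was 0.29.

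Kcnq3, a subunit of the M-current that restrains repetitive firing, changed most among the members. Its probe set 1435957_at read 1693 and 1897 in cortex, 1450 and 2046 in cerebellum, 192 and 150 at 15.5 dpc, and 83.1 and 59.2 at 13.5 dpc. All 4 embryonic signals lay below the array median, so the neonatal regions were at least 6.50-fold higher (log2 difference 3.40 ± 0.17, limma adjusted p = 0.000565). The second Kcnq3 probe set, 1458421_at, read 351 to 509 in the neonatal regions and 274 to 436 in the embryo and did not pass (0.29 ± 0.16, adjusted p = 0.187).

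Kcnc1, which encodes Kv3.1 of fast-spiking neurons, read 421 and 395 in cortex, 888 and 730 in cerebellum, 265 and 125 at 15.5 dpc, and 224 and 47.9 at 13.5 dpc on probe set 1443855_at. Its neonatal arrays were all above its embryonic ones (1.63 ± 0.23, limma adjusted p = 0.00398; 1.37 without the 13.5 dpc paternal-7 array, adjusted p = 0.00972), while its probe sets 1456944_at (0.45 ± 0.15, adjusted p = 0.0612) and 1456965_at (-0.70 ± 0.29, adjusted p = 0.107) did not pass. Kcnc2, its Kv3.2 relative, differed by 0.92 ± 0.22 (adjusted p = 0.0224) and read 580 to 859 in the neonatal regions and 162 to 549 in the embryo. That call held without the paternal-7 array of cortex or of 13.5 dpc (1.15 in the latter case) and was lost without any of the other 6, at adjusted p-values from 0.0515 to 0.0794.

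Kcna2 and Kcna6 encode low-threshold Kv1 channels of axons. Kcna2 1440759_at read 290 and 359 in cortex, 528 and 543 in cerebellum, 146 and 141 at 15.5 dpc, and 157 and 46.6 at 13.5 dpc. All embryonic signals lay below the array median, which makes the neonatal regions at least 1.54-fold higher (log2 difference 1.45 ± 0.23, limma adjusted p = 0.00529; 1.17 without the low 13.5 dpc paternal-7 array, adjusted p = 0.00848). The other tested Kcna2 probe sets, 1439872_at (1.08 ± 0.43, adjusted p = 0.0971) and 1457911_at (-0.16 ± 0.21, adjusted p = 0.578), did not pass.

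Kcna6 1456954_at read 1198 and 1579, 1396 and 1491, 588 and 670, and 779 and 108 in the same order of contexts. The 108 units of the 13.5 dpc paternal-7 array stood far from the other 3 embryonic signals. The difference was 1.54 ± 0.44 (limma adjusted p = 0.0402) and 0.90 without that array (adjusted p = 0.0162); without the 13.5 dpc maternal-7 array it was 2.17 (adjusted p = 0.00249). The call was lost when any array of cortex, cerebellum or 15.5 dpc was left out, with adjusted p-values from 0.0617 without the cortex maternal-7 array to 0.152 without the cortex paternal-7 array. Kcna6 1441049_at did not pass and had the opposite sign (-0.75 ± 0.47, adjusted p = 0.247).

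Kcnd3, the pore Kv4.3 of the A-type current, was higher in both probe sets, with no overlap between ages in either. Probe set 1435720_at read 3762 and 3687 in cortex, 4865 and 4106 in cerebellum, 2579 and 2437 at 15.5 dpc, and 1427 and 1262 at 13.5 dpc (1.13 ± 0.13, limma adjusted p = 0.00182). Probe set 1447513_at differed by 1.30 ± 0.17 (adjusted p = 0.00268). Kcnip4, a calcium-binding auxiliary subunit of such channels, read 1034 and 821 in cortex, 1221 and 1244 in cerebellum, 676 and 532 at 15.5 dpc, and 359 and 281 at 13.5 dpc, and was higher by 1.18 ± 0.13 (adjusted p = 0.00193), again with no overlap between ages.

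Kcnf1 and Kcns2 encode electrically silent subunits that join other pores. Kcnf1 1454768_at differed by 1.38 ± 0.25 (limma adjusted p = 0.00904; 1.06 without the 13.5 dpc paternal-7 array, adjusted p = 0.0121) with 299 to 857 units in the neonatal regions and 38.4 to 299 in the embryo, and Kcnf1 1441300_at did not pass (0.26 ± 0.21, adjusted p = 0.371). Kcns2 read 1193 and 1362 in cortex, 1849 and 2681 in cerebellum, 872 and 1148 at 15.5 dpc, and 708 and 846 at 13.5 dpc. Its 3 ages did not overlap, and the difference was 0.89 ± 0.13 (adjusted p = 0.00427).

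Potassium channels of the other families had fewer tested probe sets. Kcnt1, the sodium-activated channel Slack, was higher in 2 of its 3 probe sets. Probe set 1439486_at read 1145 and 1020 in cortex, 1286 and 1001 in cerebellum, 621 and 531 at 15.5 dpc, and 651 and 681 at 13.5 dpc (0.79 ± 0.13, limma adjusted p = 0.00694), with every neonatal array above every embryonic one and both 13.5 dpc arrays above both 15.5 dpc ones. Probe set 1458428_at differed by 1.12 ± 0.12 (adjusted p = 0.00175), and 1441511_at did not pass (-0.06 ± 0.15, adjusted p = 0.770).

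Of 5 tested inward rectifier probe sets, 2 were higher. Kcnj3, a subunit of G protein-gated channels, passed in 1444025_at (0.93 ± 0.15, limma adjusted p = 0.00628, at least 1.10-fold), which read 223 to 352 in the neonatal regions and 85.0 to 179 in the embryo. Kcnj16, a pH-sensitive channel of glia, differed by 1.03 ± 0.21 (adjusted p = 0.0132, at least 1.41-fold; 1.26 without the 13.5 dpc paternal-7 array). The Kcnj16 call was lost without any of the 4 neonatal arrays, at adjusted p-values from 0.0522 to 0.0593. Kcnj11, the pore of the ATP-sensitive channel, did not pass (-0.37 ± 0.21, adjusted p = 0.212). It read 5275 and 3731 in cortex, 6539 and 3780 in cerebellum, 5457 and 5806 at 15.5 dpc, and 5855 and 7436 at 13.5 dpc. The antisense transcript Kcnmb4os2 did not pass either (-0.30 ± 0.15, adjusted p = 0.152).

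**Figure D3:**
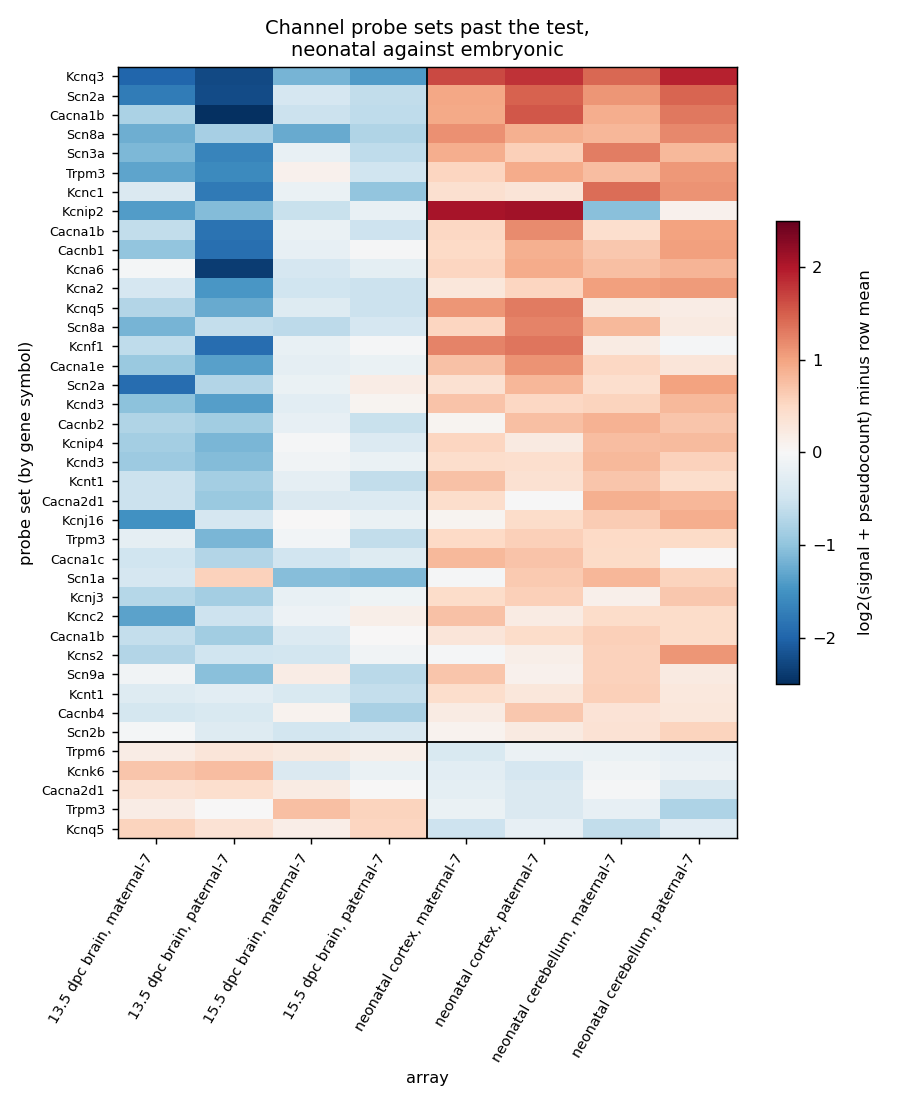
The 40 channel probe sets that passed between neonatal and embryonic arrays, as log2(signal + 58.5) minus the probe set's mean over the 8 arrays (colour). The 35 above the horizontal line are higher in the neonatal regions and the 5 below it lower; Kcnip2 is highest on both cortex arrays, and Kcna6 and Cacna1b are lowest on the 13.5 dpc paternal-7 array.

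Of the 5 lower probe sets, 4 kept all neonatal arrays below all embryonic ones. Kcnq5 1441071_at read 123 and 169 in cortex, 112 and 158 in cerebellum, 233 and 323 at 15.5 dpc, and 323 and 278 at 13.5 dpc. The neonatal signals all lay below the array median, so the embryonic brain was at least 1.23-fold higher (-0.81 ± 0.15, limma adjusted p = 0.00958). Trpm6, a magnesium-permeable channel with a kinase domain, read 678 and 804, 794 and 765, 1065 and 1003, and 1032 and 1111 in the same order of contexts, a difference of -0.44 ± 0.13 (adjusted p = 0.0434). That call was lost with any 1 of the 8 arrays left out, at adjusted p-values from 0.0697 without the 15.5 dpc paternal-7 array to 0.155 without the cortex maternal-7 array. Kcnk6, a 2-pore channel, also passed (-0.47 ± 0.13, adjusted p = 0.0380), but its 15.5 dpc signals lay within the neonatal range, and the call was lost without any 1 of the arrays other than the 15.5 dpc maternal-7 one (adjusted p-values from 0.0727 to 0.157).

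Probe sets of the same gene went in opposite directions for Kcnq5, Trpm3 and Cacna2d1, where both directions passed the test. Kcnq5 1457587_at, unlike 1441071_at, was higher in the neonatal regions (1.43 ± 0.16, limma adjusted p = 0.00176, at least 2.07-fold), with 760 and 877 in cortex, 391 and 375 in cerebellum, 247 and 202 at 15.5 dpc, and 169 and 100 at 13.5 dpc. Kcnq5 is a relative of Kcnq3 in the M-current.

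Trpm3 encodes a channel activated by heat and by steroids. It was higher in 1439026_at, with 655 and 878 in cortex, 782 and 995 in cerebellum, 472 and 294 at 15.5 dpc, and 139 and 106 at 13.5 dpc (1.65 ± 0.20, limma adjusted p = 0.00228), and in 1456633_at (1.03 ± 0.20, adjusted p = 0.0110; 0.0555 and 0.0561 without the paternal-7 array of cortex and of cerebellum; difference 0.84 without that of 13.5 dpc). It was lower in 1443723_at, with 326 and 278, 312 and 194, 663 and 570, and 427 and 377 in the same order (-0.75 ± 0.14, adjusted p = 0.00888).

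Cacna2d1, an auxiliary subunit that brings calcium channels to terminals, was higher in 1433643_at, with 3531 and 2563 in cortex, 4816 and 4629 in cerebellum, 1984 and 2027 at 15.5 dpc, and 1764 and 1315 at 13.5 dpc (1.08 ± 0.15, limma adjusted p = 0.00324). It was lower in 1441608_at, whose neonatal signals, 142 to 195, all lay below the array median (-0.50 ± 0.13, adjusted p = 0.0316, embryonic brain at least 1.07-fold higher). The second call was lost without any 1 of the arrays other than the maternal-7 one of 13.5 dpc, at adjusted p-values from 0.0586 without the cerebellum maternal-7 array to 0.117 without the cerebellum paternal-7 array. The annotation used here does not say which transcript forms these probe sets measure.

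In all, 22 member genes had at least 2 tested probe sets. For 11 of them every difference had the same sign, and for 4, Scn2a, Cacna1b, Scn8a and Kcnd3, every tested probe set was higher. The shares of such genes among all genes with at least 2 tested probe sets were not counted, so these counts describe the members only.

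**Figure D4:**
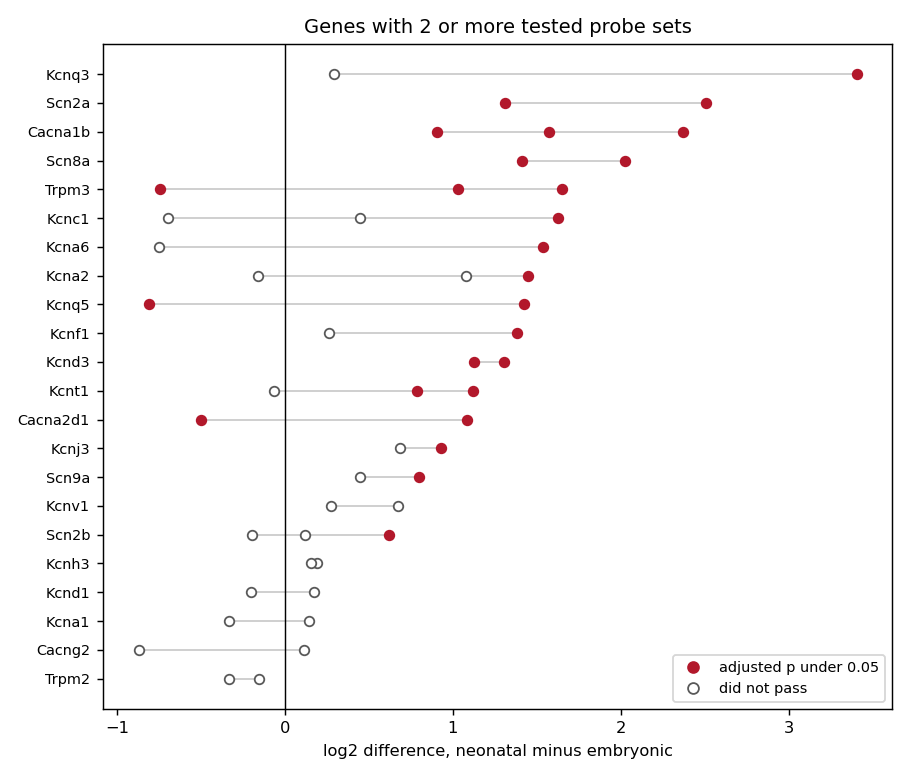
Difference between neonatal and embryonic arrays (log2, x axis) for each tested probe set of the 22 genes that had 2 or more; filled points passed the test. Kcnq3 spans 0.29 to 3.40, and Kcnq5, Trpm3 and Cacna2d1 have filled points on both sides of 0.

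The genes that anchor, traffic or modulate these channels were also often higher. The list of such partners, which was put together with earlier results of these data known, has 55 genes, of which 34 had a probe set and 33 were tested. In the neonatal regions 21 of the 33 were higher and 2 lower, against 14.3% and 16.4% of all tested probe sets, with a median of 0.88. Each partner gene is represented by its probe set with the highest mean log2 signal, whereas these shares count every tested probe set. The count and the shares are therefore unlike measures. Fgf12, an intracellular regulator of sodium channels, was higher by 2.02 ± 0.18 (limma adjusted p = 0.00103) and Ank2, an ankyrin that anchors channels to the cytoskeleton, by 1.97 ± 0.14 (adjusted p = 0.000601). Dpp10, an auxiliary subunit of Kv4 channels, was higher by 1.74 ± 0.19 (adjusted p = 0.00171). The lower ones were Orai3, a pore of store-operated calcium entry (-0.75 ± 0.14, adjusted p = 0.00998), and Dlg1, a scaffold protein (-0.51 ± 0.15, adjusted p = 0.0414).

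Between both embryonic ages, a few channels differed in the same direction. At 15.5 dpc, 8 of the 86 members (9.30%, 6 genes) were higher than at 13.5 dpc, against 3.52% of all tested probe sets, and 1 (1.16%), Kcnk6, was lower, against 3.07%. The median difference was 0.32 over members and -0.02 over all. The 8 were both tested probe sets of Scn2a and of Kcnd3, and 1 each of Scn3a, Kcnv1, Trpm3 and Kcnk10.

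Both arrays of 15.5 dpc were above both of 13.5 dpc for each of these 8 probe sets. Scn2a 1435933_at differed by 1.47 ± 0.28 (limma adjusted p = 0.0339), and Scn2a 1445259_at, with 349 and 458 against 64.0 and 216, by 1.32 ± 0.24 (adjusted p = 0.0321, at least 1.46-fold). Scn3a differed by 0.97 ± 0.18 (adjusted p = 0.0314). Kcnd3 differed by 0.87 ± 0.18 in 1435720_at (adjusted p = 0.0400) and by 1.11 ± 0.23 in 1447513_at (adjusted p = 0.0428, at least 1.89-fold).

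Kcnv1, a silent subunit, read 332 and 382 at 15.5 dpc and 141 and 54.1 at 13.5 dpc on 1453273_at, a difference of 1.47 ± 0.32 (limma adjusted p = 0.0472, at least 1.30-fold). Trpm3 1439026_at differed by 1.26 ± 0.28 (adjusted p = 0.0485, at least 1.36-fold). Kcnk10, the 2-pore channel TREK-2, read 1442 and 1675 against 740 and 822 (0.94 ± 0.21, adjusted p = 0.0467), and its neonatal signals, 892 to 1740, spanned those of 15.5 dpc. Kcnk6, on the other side, read 424 and 497 at 15.5 dpc and 938 and 997 at 13.5 dpc (-0.99 ± 0.19, adjusted p = 0.0335).

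These calls rest on few arrays. Without the 13.5 dpc maternal-7 array 6 members were higher and 0 lower, and without any of the other 3 embryonic arrays 0 were called; without the 13.5 dpc paternal-7 array limma called 0 of all probe sets. In all fits tried these differences kept their sign. The neuron markers moved with this contrast too, since Syt1, Map2 and Rbfox3 were higher at 15.5 dpc, and the summed signal of that list was 34480 to 39610 at 15.5 dpc and 15360 to 22360 at 13.5 dpc. Summed cortex markers were brighter at 15.5 dpc as well (14210 to 15470, against 6531 to 8234, with 1 of 5 passing, Neurod2). Summed choroid plexus markers were also brighter at 15.5 dpc (50650 to 58550, against 24820 to 37440, with 1 of 3 passing), and those of endothelium and pericytes dimmer (1010 to 1113, against 1612 to 1634, with 1 of 2 passing). The part of these markers in the channel result was not tested. Of the 33 tested channel partners, Fgf12, Dpp10, Cntn2 and Dlg2 were higher at 15.5 dpc and 0 were lower. Over all tested probe sets 3.52% were higher and 3.07% lower. The partner list counts 1 probe set per gene and was put together with earlier results known, so the count and the shares are unlike measures.

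A step at each age was frequent among the channels. For 22 of the 86 tested probe sets (25.6%, 18 genes) both 13.5 dpc arrays lay below both 15.5 dpc arrays and these below all 4 neonatal ones, against 7.09% of all tested probe sets. Among them were all 3 probe sets of Cacna1b, both of Scn2a and of Kcnd3, and Kcnq3 1435957_at, Scn3a, Cacna1e and Cacnb1. The reverse order was found for 2 probe sets (2.33%), Cacna2d1 1441608_at and Trpm2 1436225_at, against 6.16% of all. All embryonic signals of Kcnq3 1435957_at, Kcnq5 1457587_at, Kcnj3 1444025_at and Kcnj16 1436163_at lay under the array median. Their order between 13.5 and 15.5 dpc is therefore one of background signals. The same holds for Cacna2d1 1441608_at between 15.5 dpc and the neonatal regions. Such probe sets were left out of neither the member counts nor the shares of all.

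Cortex and cerebellum of the newborn differed in 1 member. Kcnip2 encodes KChIP2, a calcium-binding subunit of Kv4 channels, and its start-site sequence is given above. It read 1531 and 1582 in cortex and 125 and 350 in cerebellum, a difference of 2.56 ± 0.28 (limma adjusted p = 0.0293). In embryonic whole brain it read 202 and 275 at 15.5 dpc and 86.4 and 120 at 13.5 dpc, so both cortex arrays were the only ones above 350 units. It also passed as higher in the neonatal regions (1.61 ± 0.20, adjusted p = 0.00254, at least 2.11-fold because all embryonic signals were under the array median), although the cerebellar signals overlapped the embryonic ones. Among all tested probe sets, 0.197% were higher in cortex and 0.129% higher in cerebellum, and 1 of 86 members (1.16%) and 0 of 86 were.

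The Kcnip2 call was lost without any of the 4 neonatal arrays, at adjusted p-values from 0.189 without the cerebellum maternal-7 array to 0.248 without the cortex maternal-7 array, with differences from 2.10 to 3.02. In each of these fits limma called 0 of all probe sets. The summed signal of the cortex markers was 17830 to 18360 in cortex and 5828 to 6354 in cerebellum, and that of the cerebellar markers 4647 to 7289 and 12300 to 13640. At an unadjusted p under 0.05, 11 members and 1011 of all probe sets were counted.

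Other channels with large differences between the regions did not pass, although in each case both arrays of one region lay above both of the other. Kcnf1 1454768_at read 801 and 857 in cortex and 363 and 299 in cerebellum (1.19 ± 0.36, limma adjusted p = 0.432). Kcng1, another silent subunit, read 429 and 832 in cortex and 216 and 262 in cerebellum (1.15 ± 0.23, adjusted p = 0.168), and Kcnq5 1457587_at differed by 0.99 ± 0.22 (adjusted p = 0.256) and Kcna1 1455785_at by 0.95 ± 0.42 (adjusted p = 0.676). In the other direction were Scn2b 1457144_at, with 359 and 91.0 in cortex and 458 and 442 in cerebellum (-1.02 ± 0.47, adjusted p = 0.690), Kcnj5, with both cortex signals under the array median (-0.99 ± 0.38, adjusted p = 0.599), and Kcnc1 1443855_at (-0.89 ± 0.33, adjusted p = 0.580). These 7 have the largest differences after Kcnip2 and were picked by size after their values were seen.

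Between the duplications, no channel passed the test. The study compared them to find genes whose expression depends on the parent of origin. Of all tested probe sets, 0.00756% (1) were higher on paternal-7 arrays and 0% lower, and of the 86 members 0 and 0. At an unadjusted p under 0.05, limma counted 9 members and 1147 of all probe sets, and the smallest adjusted p of a member was 0.532. The median difference was 0.02 over members and 0.01 over all. Members were higher on the paternal-7 array in all 4 contexts in 10 of 86 cases (11.6%), against 9.67% of all probe sets, and lower in all 4 in 6 cases (6.98%), against 9.08%; both shares are close to the background.

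The largest difference with 1 sign in all 4 contexts was that of Kcnj5, a subunit of G protein-gated potassium channels. It read 44.4 and 119 in cortex, 178 and 245 in cerebellum, 39.3 and 342 at 15.5 dpc, and 113 and 308 at 13.5 dpc, so paternal-7 arrays were higher in each context (1.07 ± 0.27, limma adjusted p = 0.532) but the groups overlapped. On all 4 maternal-7 arrays the signal was under the array median.

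Scn2a 1445259_at was higher by 0.63 ± 0.17 (limma adjusted p = 0.535, 4 of 4 contexts), while Scn2a 1435933_at had both signs. Kcnip2 (0.47 ± 0.20), Kcng1 (0.40 ± 0.16), Kcnk10 (0.37 ± 0.15) and Kcns2 (0.33 ± 0.13) followed, with adjusted p-values from 0.562 to 0.577. Lower on paternal-7 arrays in 4 of 4 contexts were Scn9a 1442810_x_at (-0.69 ± 0.15), Kcnc1 1443855_at (-0.64 ± 0.23), Scn3a (-0.44 ± 0.13), Kcnt1 1458428_at (-0.33 ± 0.12), Trpm3 1443723_at (-0.28 ± 0.14) and Kcnd3 1435720_at (-0.13 ± 0.13), with adjusted p-values from 0.532 to 0.758. None of these passed.

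Channel genes of the chromosomes that carry the duplications were looked at by name; the sources used here do not give which of them lie in the proximal, duplicated part. On chromosome 7, 8 tested probe sets of 6 genes had a median difference of 0.07 (0.02 over all 704 tested probe sets of that chromosome), with 6 above 0. On chromosome 15, 11 tested probe sets of 6 genes had a median of 0.18 (0.02 over all 372), with 10 above 0. The 67 members on other chromosomes had a median of 0.01, with 36 above 0. Over all tested probe sets 51.9% lay above 0, and this share was not counted by chromosome. None passed, and probe sets of the same gene share their transcript. On chromosome 15 every one of these genes but Kcns2 had more than a single tested probe set.

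Of the chromosome 7 genes, Trpm4, a calcium-activated cation channel, was higher on paternal-7 arrays in 4 of 4 contexts. It read 656 and 756 in cortex, 543 and 746 in cerebellum, 693 and 726 at 15.5 dpc and 922 and 1235 at 13.5 dpc (0.27 ± 0.14, limma adjusted p = 0.591), and the groups overlapped. Kcnc1 had 1 probe set lower in 4 of 4 contexts (1443855_at, above), and its other two differed by 0.10 ± 0.15 and 0.17 ± 0.29 with mixed signs. Cacng7 (0.04 ± 0.13), Cacng8 (0.15 ± 0.17), Kcnk6 (0.02 ± 0.13) and Kcnj11 (-0.21 ± 0.21) had mixed signs, with adjusted p-values from 0.766 to 0.971.

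Of the chromosome 15 genes, Kcns2 was higher on paternal-7 arrays, where the chromosome 15 duplication is maternal, in 4 of 4 contexts (0.33 ± 0.13, limma adjusted p = 0.565). Kcnv1 (0.27 ± 0.15 and 0.02 ± 0.23), Kcnh3 (0.21 ± 0.16 and 0.12 ± 0.14), Scn8a (0.25 ± 0.17 and 0.22 ± 0.23) and Kcnq3 (0.03 ± 0.17 and 0.08 ± 0.16) had both signs among the contexts. Cacng2, also known as stargazin, differed by 0.18 ± 0.26 in 1440210_at and by -0.38 ± 0.28 in 1453363_at. The first read 1045 and 2515 in cortex, and the second read 1025 and 338 at 15.5 dpc, which were the largest pair differences of these probe sets (1.22 and -1.45).

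The probe sets of chromosomes 7 and 15 that were too dim to test had mean differences over 4 contexts of -0.23 ± 0.94 (SD) for Trpc2, 0.06 ± 0.04 for Trpm5, 0.19 ± 0.16 for Scn8a, -0.03 ± 0.20 for Kcnh3 and 0.02 ± 0.32 for Kcnv1.

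**Figure D5:**
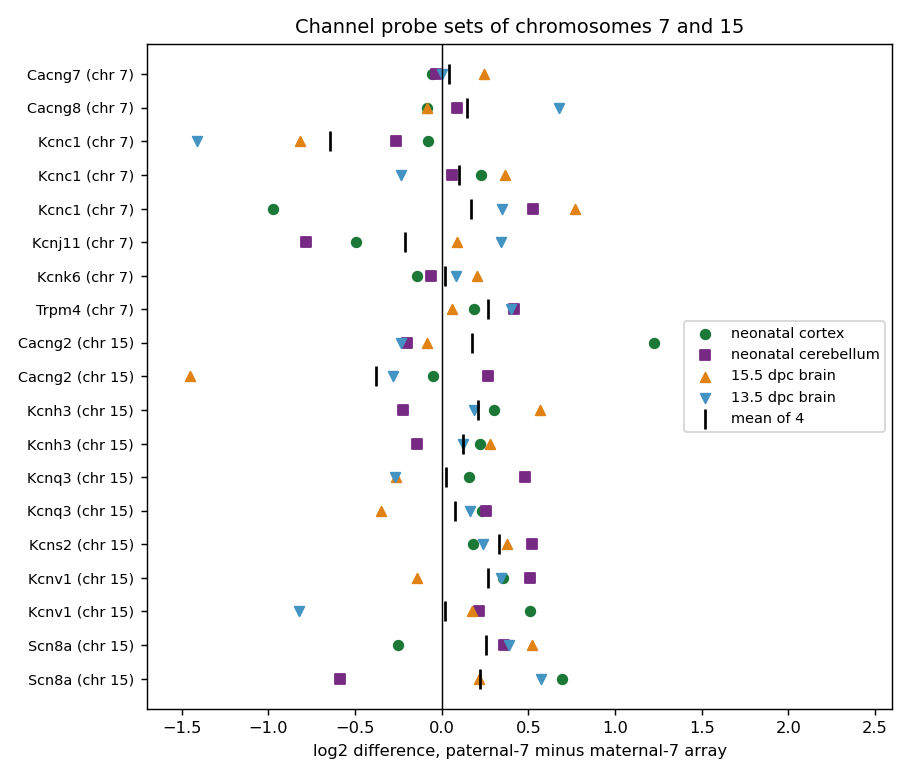
Difference between the paternal-7 and the maternal-7 array (log2, x axis) in each of the 4 contexts, for the 8 tested channel probe sets of chromosome 7 and the 11 of chromosome 15; bars mark the mean of the 4. Points of most probe sets lie on both sides of 0; those of Trpm4 and Kcns2 all lie right of it and those of 1 Kcnc1 probe set all left.

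The effect of the duplications was also compared between the neonatal and the embryonic contexts. Of the 86 members 0 passed, and 0% of all tested probe sets did, with a smallest adjusted p of 0.444 among members (limma, 2 residual degrees of freedom). At an unadjusted p under 0.05, 12 members and 1209 of all probe sets were counted.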

How the data were processed

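The deposited values are MAS5 signal intensities on a linear scale, per the submitters' processing notes, in which the MAS5 version is not given; they hold no detection calls. Biotinylated cRNA was hybridised to 430B arrays, per the labels' protocols. MAS5 summarises each array by itself, so low signals are noisy, and precision is limited by having 8 arrays. The trimmed mean was 497.3 to 498 on each array, and no further scaling was made. Of 22511 probe sets, after 64 controls were set aside, 245 had several symbols and 7605 none in the platform annotation. Members were named by their symbols in that annotation, and all 74 member genes matched a RefSeq entry by gene identifier. Genes of the marker and partner lists were also looked up under their RefSeq symbols. The intensities as deposited were taken as log2(signal + 58.5), with a pseudocount set to the median of the 8 arrays' 20th percentiles. limma 3.58.1 in R 4.3.3 was used with eBayes to fit an additive model of context and duplication to all tested probe sets (3 residual degrees of freedom).

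"At least N-fold" divides the bright side's geometric mean signal by the dim side's, after dim signals were raised to their array's median. The probe sets named were taken by rule. These were up to 12 called in each direction per contrast with sides that do not overlap, up to 6 uncalled duplication differences each way whose sign held in 4 of 4 contexts, all genes of chromosomes 7 and 15, the largest mean signal of each family, genes called in opposite directions, and up to 4 partners per contrast. Other members that passed are given to complete their families, and uncalled ones where they belong to the same gene or family. The members, families, marker lists and tests were chosen with earlier results of these data known. The fit was tested on simulated data. Between neonatal and embryonic arrays, 78% of differences of 1 (log2) and 100% of differences of 2 were recovered. Between the duplications these shares were 84% and 98.5%. They were 0% and 94% between cortex and cerebellum, and 0% and 99% between both embryonic ages. The simulation changed the same number of probe sets in every contrast, unlike the data, and the adjusted threshold depends on that number. These shares therefore do not carry over to the data, where differences under 1 passed between both embryonic ages. Alternatives were median centring, quantile normalization, a floor of 1 with no pseudocount, a pseudocount at the array median, no filter, a filter on 4 arrays, 1 probe set per gene, an intensity trend, no duplication term, and leaving out arrays or pairs.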

Additional observations from a re-analysis of the deposited data

Results flagged for a closer look

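In groups of 4 values, a lone value was picked out where its gap to the next was most of the group's range, a rule that chance meets in about 1 of 20 groups; 75 groups were examined. On the 13.5 dpc paternal-7 array, 3 probe sets read far below the other 3 embryonic arrays, with 49.1 signal units for Cacna1b 1436602_x_at, 108 for Kcna6 1456954_at and 46.6 for Kcna2 1440759_at. Among differences between the paternal-7 and the maternal-7 array (log2), 4 contexts stood apart from the other 3 of their probe set. They were cortex for Kcng1 (0.87) and for Cacng2 1440210_at (1.22), cerebellum for Trpm3 1443723_at (-0.55), and 15.5 dpc for Kcnq3 1458421_at (-0.35).

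For 3 of the tested probe sets of chromosomes 7 and 15, both neonatal contexts differed one way between the duplications and both embryonic contexts the other way. Members of other chromosomes showed this split too, among them Cacna1b 1436602_x_at, Cacna1b 1460608_at and Scn2a 1435933_at. Its share over all probe sets was not counted. The neonatal minus the embryonic difference was -0.85 for Kcnj11 (limma adjusted p = 0.505), -0.24 for Kcnk6 (adjusted p = 0.751) and 0.59 for Kcnq3 1435957_at (adjusted p = 0.552). None passed the test of that difference.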

How the results depend on the processing

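No named value that passed changed its sign in any alternative run. Over the alternatives for named values that had passed, the call between neonatal and embryonic arrays was kept 227 times and lost 34 times, that between both embryonic ages was kept 56 and lost 57 times, and that between cortex and cerebellum was kept 6 and lost 6 times; the 364 for differences between the duplications stayed uncalled, and in 21 of them the sign differed. The count of members higher in the neonatal regions was 28 with 1 probe set per gene and 33 to 40 with the other settings on all arrays, and 27 to 37 with an array left out. The count of members lower there, 5, became 2 with quantile normalization or median centring and 3 with no filter, with the filter on 4 arrays or with 1 probe set per gene, and 2 to 4 with an array left out.

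The count of members higher at 15.5 than at 13.5 dpc, 8, became 5 with median centring, 1 with a floor of 1, 0 with no filter, and 14 with the pseudocount at the array median or with an intensity trend, and was 0 to 6 with an array left out. That of members lower, 1, became 0 with no filter and 0 with any embryonic array left out. For cortex above cerebellum, the count of 1 became 0 with a floor of 1, with no filter and with an array left out, and also with the filter on 4 arrays, which Kcnip2 did not reach. The causes were not tested, apart from the number of probe sets tested under other filters. Median differences between neonatal and embryonic arrays were 0.46 over members and -0.06 over all probe sets with quantile normalization, and 0.54 and 0.02 with median centring.

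Every group is a single array. Both arrays of a context are paired through the context term of the model, and the labels carry no pairing beyond the context. Signals under the array median limit what can be said of the 38 untested probe sets and of dim sides, against which a log2 difference depends on the pseudocount and a fold is given as a bound.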
